A study of Homo sapiens with 30 samples.

Results

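NGP is an established human neuroblastoma cell line with amplified MYCN and MDM2 genes. The experiment described here is its treatment with ASO2, an antisense oligonucleotide (ASO) against NESPR, a long non-coding RNA, set against a negative control ASO called NCA. It was taken from the NGP table by column name and holds 6 of the 30 libraries of the series, 3 with ASO2 and 3 with NCA. Cells of every group, the controls included, received 100 nM of their oligonucleotide with lipofectamine 2000, so that the lipid was common to both groups, and the harvest time is not given in the sources used here. The 3 NGP libraries treated with ASO10, another ASO against NESPR, entered the fit and are used below only to show where ASO2 differed from it. The labels do not say that replicates came from separate cultures, so p-values measure the spread between these libraries, which may be technical. One control column is spelled unlike the other 2, and the labels do not settle whether it stands for the same control oligonucleotide.

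The deposited table lists 57905 genes, of which 14114 had a mean of at least 10 normalized counts over the 6 libraries and were tested. The libraries held 11591178 to 13795561 reads on genes. The cells carried the markers of the labelled line: all 14 adrenergic neuroblastoma markers reached a mean of 10, while the summed level of 6 Schwann cell markers was 11.1 to 26.9 normalized counts with ASO2 and 17.4 to 31.0 with NCA. SOX10, PTPRC, CD3E, CDH1 and KRT18, which define Schwann, immune and epithelial cells, were at 0 in all 6 libraries. Of 6 immune markers 2 reached a mean of 10, CD14 (25.1 to 28.9 with ASO2, 6.15 to 20.4 with NCA) and LYZ (10.0 to 13.9 and 20.5 to 23.0), and the 6 summed to 39.5 to 48.9 with ASO2 and to 26.7 to 45.2 with NCA. Of 5 epithelial markers 1 did, KRT19 (17.6 to 26.7 and 15.4 to 20.9), and the 5 summed to 28.6 to 32.5 and to 24.8 to 29.1. A list of 9 mesenchymal markers summed to 14975 to 15922 with ASO2 and to 11647 to 11808 with NCA. Most of that sum was VIM, at 12770 to 13719 against 9042 to 9214, and its members went both ways: SNAI2, COL1A1 and COL3A1 were also higher with ASO2, TWIST1 (1209 to 1283 against 1569 to 1759) and FN1 (274 to 326 against 377 to 405) were lower, and PRRX1, CD44 and COL1A2 stayed under a mean of 10. The part of these markers in the results below was not tested. NCA replicate 3 stood apart from the other controls: counts differed from those of replicate 2 by 7.51 times the sampling variance (chi-square per degree of freedom), against 2.30 to 2.88 between ASO2 libraries.

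ASOs pair with an RNA, and those with a DNA core let the enzyme RNase H cut it. Transfected oligonucleotides can also engage stress pathways, of which several are well charted in transcript data. DNA damage and related stress switch on a set of cell cycle brakes, repair genes and death genes. The integrated stress response slows translation by phosphorylating eIF2 and raises the factor ATF4, which drives amino acid uptake and synthesis. Neuroblastoma cells of the adrenergic type keep a sympathetic neuron programme, with HAND2 among its core factors, catecholamine enzymes and the machinery of secretory vesicles.

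With ASO2, 8383 genes passed an adjusted p of 0.05 in limma (Benjamini-Hochberg over all genes tested), which is 59.4% of those tested. Of these, 4343 rose (30.8%) and 4040 fell (28.6%). Changes were on the log2(value + 1) scale, on which the median over all genes tested was 0.00 and the middle of the distribution ran from -0.39 to 0.32 (quartiles). A change of at least 1 was called for 1298 genes (9.2%), with 475 higher (3.37%) and 823 lower (5.83%). Because calls were this common, each gene group below is given by its counts in each direction against these shares, and nothing is called particular to a group. Values did not overlap between the groups for 8906 genes (63.1%), nor for any gene below whose library values are printed, except where an overlap is stated. In bulk RNA, fewer cells of a type and less RNA per cell cannot be told apart.

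**Figure D1:**
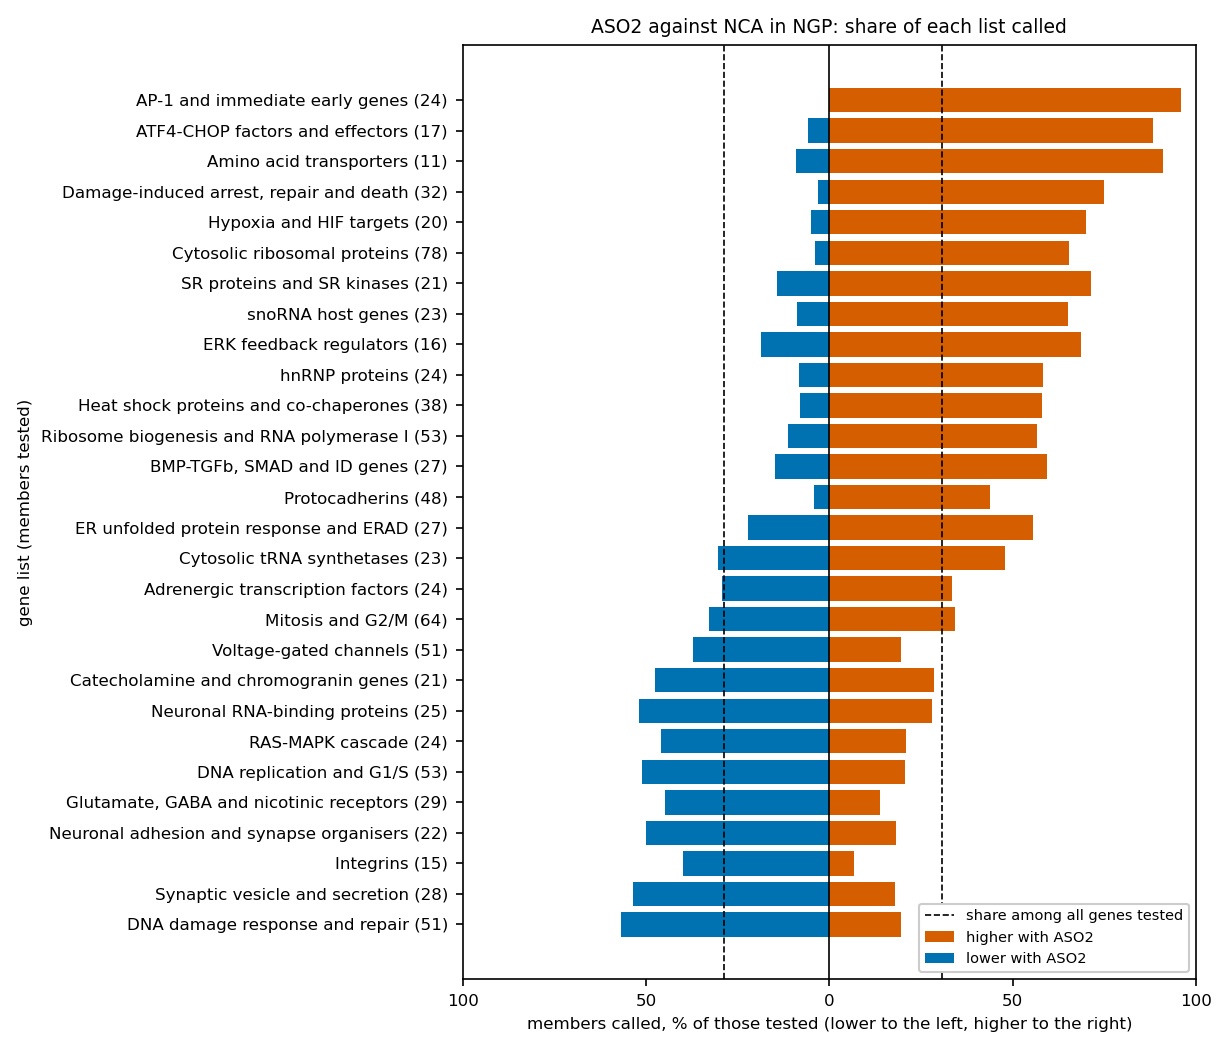
Share of the tested members of 28 gene lists called higher (right) or lower (left) with ASO2 than with NCA, as a percentage of the members tested, whose number stands in brackets. Dashed lines mark the shares over all genes tested, 30.8% higher and 28.6% lower.

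A list of genes of 4p13 was read first. The labels give no identifier for NESPR, and no gene name was equated with it. LINC00682, a long non-coding RNA gene of this list, stood at 396, 487 and 445 normalized counts with ASO2 and at 743, 792 and 671 with NCA. All ASO2 libraries lay below all controls. The log2 change was -0.73 ± 0.09 (SE, n = 3 and 3; limma adjusted p = 6.69e-08), and an exact two-sided permutation test of this gene alone gave 0.1, the smallest p that 3 against 3 allows. Of the 10 genes of the list that were tested, 4 rose, led by the adaptor APBB2 (0.61), and 4 fell. DCAF4L1 did not pass (-0.21).

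Most genes of a list of damage-induced arrest, repair and death genes rose: 24 of 32 tested members were called higher, 1 fell and 7 were not called, with a median log2 change of 0.55. MDM2, a ubiquitin ligase, is amplified in this line. It read 55881, 53523 and 56853 normalized counts with ASO2 against 27190, 26306 and 28486 with NCA, a log2 change of 1.02 ± 0.04 (limma adjusted p = 2.14e-15). CDKN1A, which encodes the CDK inhibitor p21, stood at 6458, 5884 and 6442 with ASO2 and at 2441, 2514 and 1978 with NCA. Its log2 change was 1.44 ± 0.07 (adjusted p = 9.16e-15, limma), and no control library came near the treated ones.

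FAS, a death receptor, had the largest change of this list, from 39.2, 47.9 and 49.2 normalized counts with NCA to 214, 203 and 218 with ASO2 (2.20 ± 0.14, limma adjusted p = 1.7e-12). RRM2B, a ribonucleotide reductase subunit used in repair, rose by 1.36 and the stress cytokine GDF15 by 1.34. The kinase PLK2 and the phosphatase PPM1D rose by 1.11 and 1.00 and were chosen after their values were seen. POLH, a translesion DNA polymerase outside this list, was among the 10 symbols with the largest rise at a mean of at least 50 and no overlap (2.02 ± 0.11), with 771, 705 and 800 counts against 183, 151 and 235. SPATA18, a mitochondrial quality gene of the list, went the other way: 23.2, 25.7 and 12.2 with ASO2 against 76.5, 62.0 and 57.4 (-1.69 ± 0.24).

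In the BCL2 family 7 of 14 tested members rose and 2 fell. The rises were largest in BH3-only members, the proteins that trigger the mitochondrial route: BMF (1.91), BCL2L11, which encodes BIM (1.13), PMAIP1 (0.91) and BBC3 (0.73). BMF went from 31.9, 37.2 and 35.9 normalized counts to 150, 140 and 115. The 2 members that fell were the survival genes BCL2 and BCL2L2, by 0.69 and 0.66, so no other tested survival gene of the family was called lower. Among caspases, death receptors and inhibitors, 6 of 16 rose and 3 fell: the TNF receptor TNFRSF1A rose by 1.76 and the apoptosome scaffold APAF1 by 0.94, whereas DIABLO, a mitochondrial antagonist of the inhibitors, fell by 1.29 from 2364, 2438 and 2316 counts to 998, 1073 and 852.

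Genes of the integrated stress response formed another group with nearly all calls on the high side. Of 17 tested ATF4 and CHOP factors and effectors, 15 rose, 1 fell and 1 was not called, with a median of 0.77. STC2, a secreted glycoprotein induced by ATF4, read 1226, 1123 and 1164 normalized counts with ASO2 and 261, 297 and 242 with NCA (2.13 ± 0.08, limma adjusted p = 4.6e-16). SESN2, a leucine sensor upstream of mTORC1, rose by 1.44 ± 0.09 (adjusted p = 5.01e-13, limma), and CTH, which makes cysteine, rose by 1.40. ATF5 and ATF3, both bZIP factors, rose by 1.18 and 1.16.

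ATF4 itself changed less, at 5376, 5034 and 5491 counts against 3856, 4191 and 3419 (0.48 ± 0.06). DDIT3, which encodes CHOP, was not called (0.11 ± 0.09, adjusted p = 0.284 in limma): its ASO2 values of 589, 537 and 547 overlapped the control values of 532, 588 and 439. EIF4EBP1, a translation repressor, fell by 0.16. ATF4 is controlled mainly at translation, which a transcript table does not measure.

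Pathways that ATF4 feeds were read next. Amino acid transporters rose in 10 of 11 tested cases, with a median of 0.77. SLC7A11, the cystine importer, read 687, 661 and 708 against 319, 318 and 258 (1.20 ± 0.10). SLC7A5 and SLC3A2, the 2 chains of the large neutral amino acid exchanger, rose by 1.06 and 1.05, and the glutamine carrier SLC38A2 by 0.91. The exception was SLC38A1, another glutamine carrier, which fell by 0.53 from 8186, 8003 and 8900 to 5829, 5887 and 5654. In serine, one-carbon and asparagine synthesis 7 of 17 rose and 6 fell: the enzymes of the serine branch were higher (PSAT1 0.94, PHGDH 0.92, PSPH 0.68), as was asparagine synthetase ASNS (0.61), while the folate enzyme SHMT1 fell by 0.95.

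Cytosolic tRNA synthetases were divided, with 11 of 23 higher, 7 lower and 5 not called. NARS1, CARS1, GARS1 and TARS1, which charge asparagine, cysteine, glycine and threonine tRNAs, rose by 1.07, 0.85, 0.80 and 0.54. EPRS1, the glutamate and proline enzyme, stood at 2800, 2920 and 2664 with ASO2 and at 5539, 5489 and 5511 with NCA. Its fall of 0.98 ± 0.05 left every ASO2 library below every control. FARSB, HARS1 and MARS1 fell by 0.90, 0.51 and 0.43. Among eIF2 kinases, eIF2 and eIF2B, 6 of 16 rose, including the kinases EIF2AK3 (PERK, 0.71) and EIF2AK1 (HRI, 0.69), and 7 fell, led by the eIF2 subunit EIF2S3 (-0.84) and the GCN2 inhibitor IMPACT (-0.70).

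Promoter letters were examined for the stress lists. Calls were nearly all higher in the ATF4 and transporter lists and were divided in the tRNA synthetase and serine lists. RefSeq promoter windows (GRCh38.p14, 250 bases before to 50 after each annotated start) were searched on both strands for the ATF4 composite site, written as TGATGNAAN or TTGCATCA, 2 forms that overlap in their core. The site occurred in 3.61% of all 35116 windows and in 4 of 26 windows of the ATF4 and CHOP list (15.4%). It was found in 5 of 17 windows of amino acid transporters (29.4%) and in 7 of 27 windows of tRNA synthetases (25.9%). In the serine, one-carbon and asparagine list it was found in 4 of 15 windows (26.7%). MTHFD1L of that list held the site and fell by 0.46, and was chosen after its value was seen. A match describes letters and is no evidence of binding. Shown here are 3 members of the ATF4 list that rose, with the matching letters in capitals: ATF3 at chr1:212565201-212565239 (plus strand), CEBPG at chr19:33374056-33374093 (plus strand) and JDP2 at chr14:75427991-75428021 (plus strand).
ATF3: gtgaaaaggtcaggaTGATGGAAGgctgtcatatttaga
CEBPG: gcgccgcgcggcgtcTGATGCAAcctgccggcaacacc
JDP2: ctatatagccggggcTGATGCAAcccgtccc
The log2 changes of ATF3, CEBPG and JDP2 were 1.16, 0.74 and 0.77, the last 2 chosen after their values were seen.

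The unfolded protein response of the endoplasmic reticulum (ER), whose PERK arm shares ATF4, was read next. Of 27 tested genes 15 rose, 6 fell and 6 were not called, with a median of 0.18. HERPUD1, an ER degradation factor, read 2369, 2232 and 2435 against 1118, 1091 and 1103 (1.09 ± 0.06, limma adjusted p = 5.71e-14). The sensor ERN1 (IRE1), the ligase partner SEL1L and the factor XBP1 rose by 0.92, 0.69 and 0.64. HSPA5 (BiP), the chaperone used most widely as a readout of this response, changed by 0.14 ± 0.05 (limma adjusted p = 0.0187), from 3707, 3473 and 3841 to 3917, 4118 and 4142, and it was no longer called with libraries scaled to equal totals. EDEM3, a mannosidase of ER degradation, fell by 1.03. In the ER translocon list 10 of 20 rose and 4 fell, with SEC61A2 at 1.08 and the pore subunit SEC61A1 at 0.50.

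The ER stress element, written as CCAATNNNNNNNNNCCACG on either strand, was present in 27 of all 35116 windows (0.0769%). It was present in 10 of 31 windows of the unfolded protein response list (32.3%). The members of that list were chosen as genes of this response. As for the other motifs, the share counts every tested member, called or not, and is no measure of the ASO2 effect. Shown are 3 windows of chaperone and calcium-binding genes with small changes: HSPA5 at chr9:125241376-125241424 (minus strand), CALR at chr19:12938369-12938417 (plus strand) and CRELD2 at chr22:49918539-49918587 (plus strand), with the element in capitals.
HSPA5: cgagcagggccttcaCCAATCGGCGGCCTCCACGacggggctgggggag
CALR: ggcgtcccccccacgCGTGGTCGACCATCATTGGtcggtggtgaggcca
CRELD2: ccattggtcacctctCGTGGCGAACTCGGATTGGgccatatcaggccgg
HSPA5, CALR and CRELD2 changed by 0.14, 0.25 and 0.32; CALR was chosen after its value was seen.

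Heat shock proteins and co-chaperones rose in 22 of 38 tested cases and fell in 3, with a median of 0.28, and scaled to equal totals 21 rose and 6 fell. HSPA13 and HSPA2, members of the HSP70 family, rose by 1.19 and 1.14, and BAG3, an HSP70 co-factor, by 0.74. DNAJB1, an HSP40 protein that HSF1 induces, read 2297, 2186 and 2372 against 1591, 1537 and 1527 (0.56 ± 0.06). The small heat shock gene HSPB1 fell by 0.70, but by 0.35 and with no call without ASO2 replicate 3. HSPA1A and HSPA1B are near-identical copies, so reads could be split between them, and neither was called (0.46 and 0.16).

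AP-1 and immediate early genes, which respond to growth factors and stress within minutes, rose in 23 of 24 tested cases and fell in none, with a median of 0.79. IER3 read 630, 427 and 504 normalized counts with ASO2 and 102, 100.1 and 97.4 with NCA (2.35 ± 0.12, limma adjusted p = 2.42e-14). KLF4, FOSL1, NR4A3 and FOS rose by 1.53, 1.22, 1.20 and 1.15. FOS stood at 547, 583 and 525 against 288, 276 and 192, so that all ASO2 values lay above all control values. JUNB, EGR1 and JUN rose by 0.93, 0.75 and 0.33, as did SRF (0.74), chosen after its value was seen. The member without a call was NPAS4 (0.60), chosen after its value was seen. The AP-1 site was found in 4.95% of all promoter windows and in 1 of 21 windows of this list (4.76%). The CArG box, the SRF site, was found in 1.29% of all windows and in 2 of 21 windows of this list (9.52%). In the list of ERK feedback genes the CArG box was found in 0 of 24 windows. Shown are the windows of EGR1 (chr5:138465359-138465398, plus strand) and of SRF (chr6:43171224-43171263, plus strand), with a CArG box in capitals.
EGR1: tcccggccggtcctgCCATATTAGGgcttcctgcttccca
SRF: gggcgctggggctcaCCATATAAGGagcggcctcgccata

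**Figure D2:**
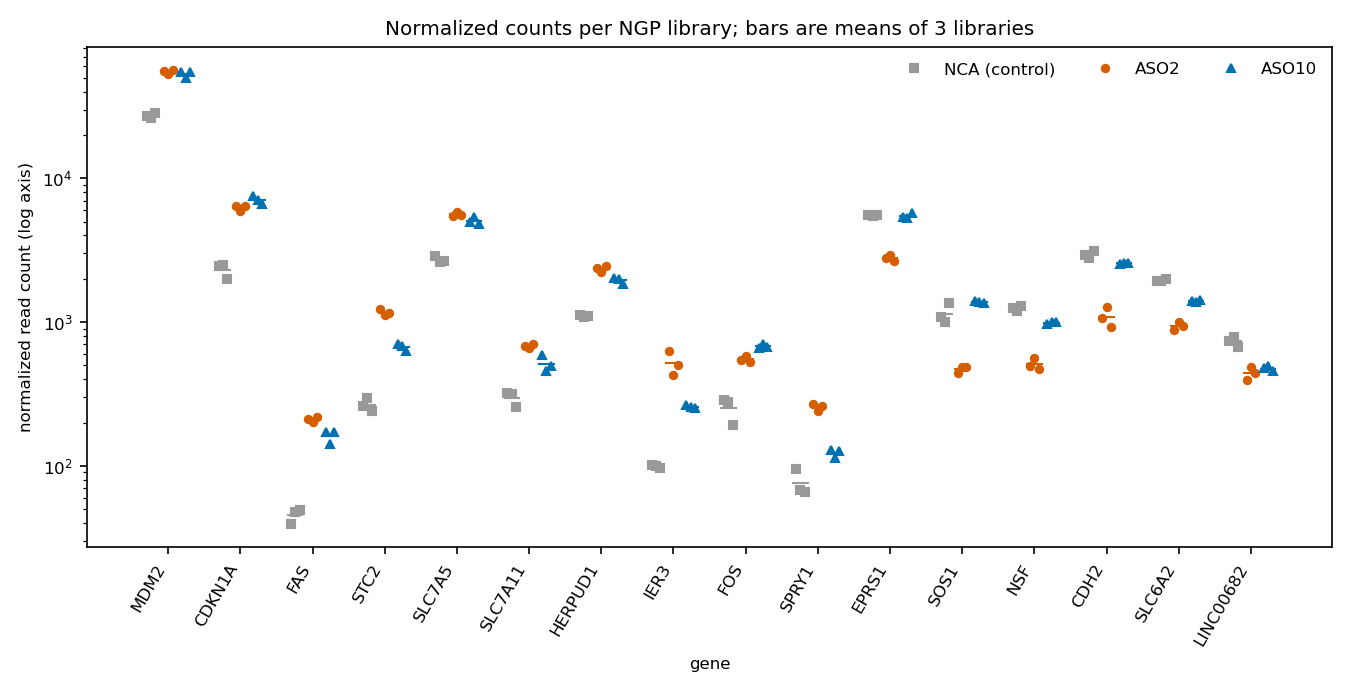
Normalized read counts (log axis) of 16 genes in each of the 9 NGP libraries, with squares for NCA, circles for ASO2 and triangles for ASO10, and a bar at the mean of 3 libraries. For the first 10 genes all ASO2 points lie above all NCA points (FAS 203 to 218 against 39.2 to 49.2), and for the last 6 they lie below (LINC00682 396 to 487 against 671 to 792).

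Targets and brakes of the ERK pathway rose in 11 of 16 tested cases and fell in 3, with a median of 0.56. SPRY1, which restrains receptor signalling, read 271, 242 and 261 against 95.6, 68.2 and 65.6 (1.76 ± 0.14, limma adjusted p = 1.09e-10). PHLDA1 and ETV5, a target and an ETS factor of the pathway, rose by 1.30 and 1.28, and the ERK phosphatases DUSP6 and DUSP5 by 0.91 and 0.90. The brakes SPRED3 and SPRED1 fell by 0.99 and 0.80, and DUSP4 by 0.39; SPRED3 was not called without NCA replicate 2 (-0.69). The kinase cascade upstream was lower more often than higher, with 11 of 24 tested members down and 5 up: the exchange factor SOS1 fell from 1076, 1000.4 and 1353 to 446, 484 and 484 (-1.27 ± 0.08), while MAP2K1 (MEK1) rose by 0.74. In the JNK and p38 cascade 7 of 23 rose and 8 fell, with the kinases MAP3K12 and MAP3K4 down by 1.57 and 1.27 and MAP2K3 up by 0.85.

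BMP, TGF-beta, SMAD and ID genes rose in 16 of 27 cases and fell in 4, with a median of 0.36. The ligand TGFB2 read 392, 447 and 414 against 168, 128 and 184 (1.40 ± 0.12), the receptor ACVR2A rose by 1.10, and ID3, a target that blocks differentiation factors, rose by 0.82. BMPR2 and SMAD4, a receptor and the shared SMAD, fell by 1.03 and 0.74. In the Notch and Hedgehog list 6 of 19 rose and 6 fell. There the ligand JAG1 (479 to 1388 as group means, 1.53) and the target HEY1 (1.36) were higher, as was the low-level receptor NOTCH1 (2.30), while NOTCH3 fell from 124, 155 and 89.2 to 30.6, 29.6 and 23.4 (-2.07 ± 0.18) and the Hedgehog factor GLI2 fell by 1.51. In the Wnt list 11 of 23 rose, including the receptor FZD1 (1.27) and the feedback gene AXIN2 (0.91), and 6 fell. In the PI3K and mTOR list 12 of 26 rose and 9 fell: PIK3CA, the catalytic subunit, and RPTOR, the mTORC1 scaffold, fell by 1.44 and 1.13, and TSC1, which restrains mTORC1, rose by 0.96.

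Hypoxia and HIF targets rose in 14 of 20 cases and fell in 1, with a median of 0.38. VEGFA, the angiogenic factor, read 2694, 2718 and 2799 against 1160, 1172 and 1223 (1.21 ± 0.06, limma adjusted p = 9.86e-15). EGLN3, the prolyl hydroxylase that HIF induces, rose by 1.14, the mitophagy receptor BNIP3L by 1.02 and ARNT, the partner of HIF1A, by 0.98. HIF1A itself rose by 0.59 and VHL, its ligase, fell by 0.19. Polyamine genes rose in 11 of 18 cases and fell in 4: the catabolic enzymes SAT1 and SMOX rose by 1.18 and 0.95, and the antizyme inhibitor AZIN1 by 0.94, while ODC1, the rate-limiting enzyme and a MYCN target, changed by 0.20.

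**Figure D3:**
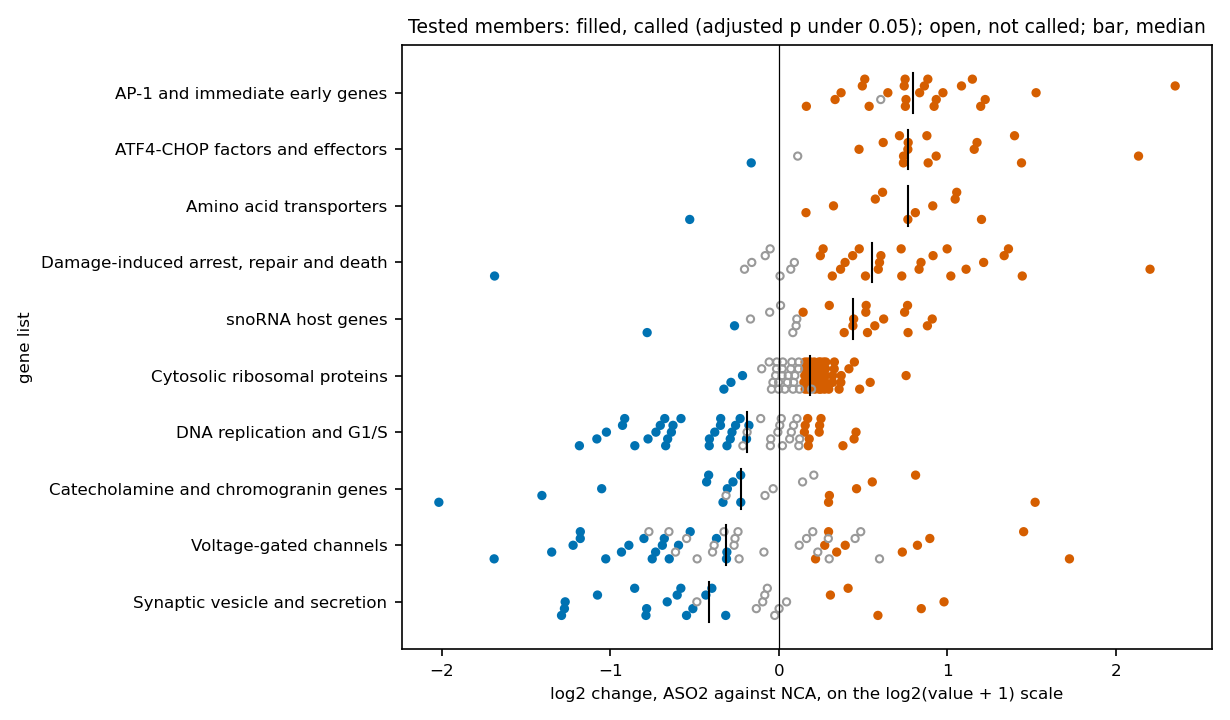
Log2 change, ASO2 against NCA, of every tested member of 10 gene lists: filled points were called and open points were not, and the black bar is the list's median. The medians run from 0.79 for AP-1 and immediate early genes to -0.42 for synaptic vesicle genes, and single members of most lists lie on the other side of 0.

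Cytosolic ribosomal proteins rose in 51 of 78 tested cases and fell in 3, with a median of 0.19, so that most of these changes were slight. RPL39 had the largest change (654, 545 and 617 against 376, 305 and 398, 0.75 ± 0.10), and RPL12 the largest fall (-0.33). Their processed pseudogenes share sequence with them, which makes single members uncertain. With libraries scaled to equal totals, 37 of the 78 rose and 4 fell. Genes at a high level rose more often in general: 52.2% of the highest of 5 equal classes of level, with a median of 0.15. The part of level in this list was not tested. Ribosome biogenesis and RNA polymerase I genes rose in 30 of 53 cases and fell in 6, with UTP14A, WDR12, WDR43 and RRN3 higher by 0.68, 0.66, 0.62 and 0.61 and the RNA polymerase I factor TAF1B and the processome subunit HEATR1 lower by 0.98 and 0.84. Mitochondrial ribosomal proteins were divided, with 17 of 75 higher, 18 lower and 40 not called.

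Hosts of small nucleolar RNAs, whose spliced transcripts are short-lived because translation exposes them to nonsense-mediated decay, rose in 15 of 23 cases and fell in 2, with a median of 0.44. ZFAS1 read 2535, 2323 and 2653 against 1348, 1452 and 1203 (0.91 ± 0.07), and GAS5 read 7150, 6827 and 7004 against 4646, 4317 and 4677 (0.62 ± 0.05). SNHG1, SNHG16 and SNHG12 rose by 0.88, 0.77 and 0.76. SNHG14, a long transcript from the imprinted chromosome 15 region, fell by 0.78 from 1054, 1079 and 1121 to 604, 676 and 613.

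SR proteins and their kinases rose in 15 of 21 cases and fell in 3. SRSF11 and the kinase CLK1 were up by 0.65 and 0.59, whereas SRRM4, the splicing factor of neuronal microexons, fell from 948, 961 and 1068 to 383, 493 and 395 (-1.23 ± 0.08). Among hnRNP proteins 14 of 24 rose and 2 fell (9 and 2 with equal totals), with the neuronal PTBP2 up by 0.72 and HNRNPA3 down by 0.77. The nuclear long non-coding RNAs MALAT1 and NEAT1 fell: MALAT1 stood at 1821, 1747 and 1903 against 3709, 3491 and 3303 (-0.94 ± 0.06), and NEAT1, the scaffold of paraspeckles, fell by 0.82 ± 0.06. The paraspeckle protein PSPC1 rose by 0.68.

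Among regulators of RNA polymerase II elongation 18 of 35 rose and 7 fell (12 and 8 with equal totals), and 2 members fell by at least 1. CCNK, the cyclin of CDK12, read 255, 298 and 284 with ASO2 and 975, 981 and 993 with NCA (-1.82 ± 0.07, limma adjusted p = 1.08e-15). HEXIM1, which holds P-TEFb inactive, rose by 0.98 ± 0.08, and the elongation factor ELL by 0.97. Cleavage and polyadenylation factors fell in 13 of 28 cases and rose in 8. In the acetyltransferase complexes SAGA and NuA4, 16 of 26 rose, with TADA1 and EPC1 at 1.20 and 1.09, and 5 fell, with VPS72 at -1.67. Polycomb and histone methyltransferase genes were divided (13 of 33 higher and 12 lower, but 10 and 14 with equal totals). SETDB1, which silences repeats through H3K9 methylation, fell from 2223, 2277 and 2249 to 761, 840 and 735 (-1.53 ± 0.06).

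Synaptic vesicle and secretion genes fell in 15 of 28 tested cases and rose in 5, with a median of -0.42. NSF, the ATPase that recycles SNARE complexes, read 498, 566 and 471 with ASO2 and 1260, 1201 and 1284 with NCA (-1.29 ± 0.07, limma adjusted p = 1.44e-13). The small GTPase RAB3C and the active zone scaffold PCLO each fell by 1.27, the SNARE gene STX1A by 1.08 and SNAP25 by 0.55. On the high side were SYT4, a synaptotagmin without calcium triggering, at 2851, 2530 and 2672 against 1385, 1314 and 1378 (0.98 ± 0.06), the vesicle protein SV2A (0.84) and RAB3A (0.59).

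Adhesion molecules and synapse organisers fell in 11 of 22 cases and rose in 4. CDH2, N-cadherin, went from 2930, 2768 and 3119 to 1061, 1270 and 920.0 (-1.45 ± 0.08), and the adhesion genes CHL1, LRRC4C and NFASC fell by 1.32, 1.19 and 1.07. LRRTM2 and NLGN2, postsynaptic partners of neurexins, rose by 1.29 and 1.15. Of voltage-gated channel genes, 110 are in the table and 51 were tested: 19 fell and 10 rose, with a median of -0.31. CACNA1B, the N-type calcium channel of sympathetic terminals, fell from 881, 887 and 926 to 345, 424 and 425 (-1.18 ± 0.08), and the leak channel KCNK3 by 1.22. KCNJ2, an inward rectifier, rose by 1.72 at a low level (56.6, 53.3 and 59.0 against 17.3, 22.2 and 11.3).

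Receptors for glutamate, GABA and acetylcholine fell in 13 of 29 cases and rose in 4: the kainate subunit GRIK5 fell by 1.06 and the NMDA subunit GRIN3A by 0.94. Neuronal RNA-binding proteins fell in 13 of 25 cases and rose in 7: CELF4 and ELAVL2 (HuB) fell by 1.02 and 0.76, and CELF3 rose by 0.62. Axon guidance genes fell in 14 of 30 cases and rose in 8, with the netrin receptor UNC5C and the ligand SLIT3 down by 0.99 and 0.94 and the ephrin EFNB2 up by 1.38. In the axonal cytoskeleton more members rose than fell, 14 of 30 against 7: the neurofilament gene NEFM read 4451, 4191 and 4182 against 2595, 2693 and 2714 (0.68 ± 0.05), and TUBB3 rose by 0.89, while SPTAN1 and the low-level MAPT fell by 0.73 and 1.16.

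Of 24 adrenergic transcription factors 8 rose, 7 fell and 9 were not called, with a median of -0.01. PHOX2A and HAND2 fell by 0.41 and 0.27, ZNF536 fell by 1.03, and SOX4 rose from 1638, 1450 and 1750 to 3618, 3451 and 3812 (1.17 ± 0.06). Which side had more calls was not stable here: 6 rose and 11 fell with equal totals, 8 and 9 in edgeR, 6 and 8 without ASO2 replicate 2, and 7 and 9 without NCA replicate 2. MYCN, the amplified driver, was not called: 44222, 44378 and 40482 with ASO2 overlapped 46057, 43295 and 47028 with NCA (-0.08 ± 0.04, limma adjusted p = 0.13). It was called lower with libraries scaled to equal totals.

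Catecholamine and chromogranin genes fell in 10 of 21 cases and rose in 6. SLC6A2, the noradrenaline transporter through which the tracer MIBG enters, read 879, 1003 and 932 against 1922, 1927 and 1979 (-1.05 ± 0.06, limma adjusted p = 2.72e-13). The enzymes TH and DBH, which make catecholamines, fell by 0.23 each. The secretogranin SCG2 rose by 0.55 and the neuropeptide NPY by 0.81. Of the surface antigens used as targets in this tumour, 6 of 15 rose and 6 fell: CD47, which restrains phagocytosis, fell by 1.03 and NCAM1 by 0.44, CD276 and GPC2 rose by 0.39 and 0.34, and the GD2 synthase B4GALNT1 was not called (-0.01). Among receptor kinases 7 of 20 fell and 4 rose, with ALK at -0.86 and IGF1R at -0.54; RET was not called (0.01).

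In the MYCN amplicon and MAX network 10 of 18 rose and 6 fell. MYC itself rose at a low level, to 44.6, 27.6 and 32.3 from 18.2, 9.75 and 10.3 (1.41). MXD4, MXD1 and MXI1, which compete with MYC proteins for MAX, rose by 0.74, 0.69 and 0.64, and NBAS, a neighbour of MYCN on chromosome 2, fell by 1.27. MYCNOS, the antisense transcript of MYCN, fell by 0.59. Whether the authors' counting used strand is not stated in the sources used here, so reads of an antisense pair may not be separable.

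Cell cycle genes were read by phase. DNA replication and G1/S genes fell in 27 of 53 cases and rose in 11 (4 with equal totals), with a median of -0.19. ORC2, of the origin recognition complex, fell from 883, 901 and 1056 to 403, 435 and 407 (-1.18 ± 0.08), and POLA1 and PRIM2, of the primase complex, fell by 1.08 and 1.02, while ORC1 and RFC3 rose by 0.46 and 0.45. DNA damage response and repair genes fell in 29 of 51 cases and rose in 10. Besides the telomere protein TERF2IP (-1.84), NBN of the break sensor complex fell from 1178, 1120 and 1286 to 542, 608 and 532 (-1.09 ± 0.07), and FANCI by 1.13, whereas RPA2, a single-strand binding subunit, rose by 0.75. Genes of mitosis were even, with 22 of 64 higher, 21 lower and a median of 0.00. Of CDK inhibitors and quiescence genes 8 of 17 rose, led by CDKN1A and CDKN2B (1.42), and 3 fell.

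Gene families with many members were also read. Protocadherins rose in 21 of 48 tested cases and fell in 2, with a median of 0.35: PCDH10, a non-clustered member, read 706, 594 and 616 against 234, 230 and 251 (1.41 ± 0.09), and PCDHA13 rose by 2.06, while PCDHGC5 fell by 1.75 at 12.1, 7.90 and 8.90 against 51.0, 42.5 and 18.5. Clustered protocadherins share their last exons, so reads may be assigned to several members at once or to none. Integrins fell in 6 of 15 cases and rose in 1, with ITGA2 and ITGA9 at -1.92 and -1.41. FOX, SOX and KLF factors rose in 21 of 36 cases and fell in 7. ZNF-named zinc finger genes, many of them similar in sequence, rose in 169 of 427 cases and fell in 81, with a median of 0.15. Solute carriers were even (56 of 184 higher, 61 lower), though the monocarboxylate carrier SLC16A9 had the largest fall among the genes named by the rule of size, at 32.5, 42.5 and 22.2 against 204, 176 and 185 (-2.55 ± 0.19).

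Cholesterol synthesis genes rose in 11 of 27 cases and fell in 4, with the regulators INSIG2, SCAP and SREBF2 at -1.04, -0.77 and -0.73. Fatty acid genes fell in 8 of 17 cases and rose in 5, with ELOVL5 at -0.86 and the desaturase SCD at 0.57. Of 15 mitochondrially encoded transcripts 1 rose and 1 fell, with a median of 0.05, and with equal totals none rose and 4 fell, with a median of -0.02. Leaving out single libraries gave 0 to 3 higher and 0 to 2 lower.

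Sensors of foreign nucleic acid gave few transcripts to test. Of 30 genes 15 passed the filter: 6 rose, 3 fell and 6 were not called. IFNB1, IFIT1 and MX1, markers of an interferon response, were listed at 0 in all 6 libraries. IRF1, which NF-kB induces, rose at a low level, from a mean of 4.02 to 21.1 normalized counts (2.06 ± 0.41). The control mean of IRF1 lay below the mean that the filter required, so it passed only through the ASO2 libraries. Its place among the 6 genes that rose is therefore tied to its rise. The adaptor MAVS fell by 1.17. In the RNase H and ASO handling list, RNASEH1, the enzyme that gapmers recruit, was not called (0.14), and RNASEH2B fell by 1.08.

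Direction varied with the length of the gene. Among genes spanning less than 5 kb 25.1% rose and 15.5% fell, and of the 2091 genes of 10 to 20 kb 849 rose and 419 fell. Of the 842 genes of 200 to 500 kb 11.3% rose and 59.1% fell, and of the 215 genes over 500 kb 6.51% rose and 63.3% fell, with a median of -0.60. With ASO10, which shares the NCA controls, the medians of these last 2 classes were -0.42 and -0.66. Over 11866 protein-coding genes the rank correlation of span with log2 change was -0.25 (Spearman's rho, across genes of the same libraries, which are not independent replicates). The part of length in the gene lists above was not tested. In 5 equal classes of level, 13.9% of the genes of the lowest class rose and 52.2% of the highest. The part of level in the gene lists was not tested either. Among 596 antisense genes 57 rose (9.56%, against 30.8% over all genes tested) and 164 fell (27.5%, near the 28.6% over all genes tested). Among 260 processed pseudogenes 60 rose (23.1%) and 16 fell (6.15%), both below the shares over all genes tested. Whether the counting used strand is not stated, so reads of antisense genes may not be separable.

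**Figure D4:**
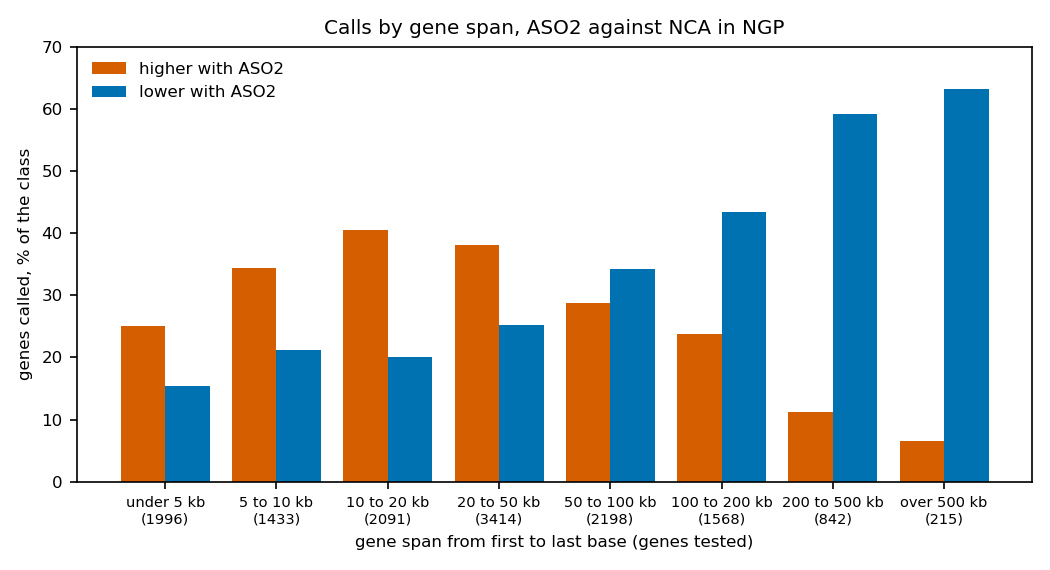
Percentage of genes called higher or lower with ASO2 than with NCA in 8 classes of gene span, the distance from the first to the last base of the gene in GENCODE 29; the number of genes tested stands in brackets. The share called lower rises from 15.5% under 5 kb to 63.3% over 500 kb.

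ASO2 and ASO10 share their controls, so their direct contrast is the test of a difference. It called 8123 genes (57.6%), with 4438 higher with ASO2 (31.4%) and 3685 lower (26.1%), of which 574 (4.07%) and 964 (6.83%) differed by at least 1. Which side had more calls depended on the scaling and the tool: 3817 were higher and 4188 lower with equal totals, 4007 and 4080 in edgeR, and 3815 and 3812 in DESeq2. The list of damage-induced arrest, repair and death genes was lower with ASO2 in 13 of 32 cases and higher in 6: its median against NCA was 0.55 with ASO2 and 0.76 with ASO10. MDM2 did not pass in this contrast (0.06, limma adjusted p = 0.249). The ATF4 list was higher with ASO2 in 7 of 17 cases, STC2 by 0.79, and lower in 4, ATF4 itself by 0.33 and DDIT3 by 0.44, but with equal totals 5 were higher and 5 lower.

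Several groups stood higher with ASO2 than with ASO10. Hypoxia genes were higher with ASO2 than with ASO10 in 13 of 20 cases and lower in 2, with medians against NCA of 0.38 and -0.10, and HIF1A differed by 1.32. Heat shock genes were higher in 22 of 38 cases and lower in 4, with DNAJB1 apart by 1.19: it rose by 0.56 with ASO2 and fell by 0.63 with ASO10. BMP and SMAD genes were higher in 16 of 27 cases and lower in 3. Adrenergic transcription factors were higher in 15 of 24 cases and lower in 4, with medians against NCA of -0.01 with ASO2 and -0.40 with ASO10. ERK feedback genes were higher in 9 of 16 cases and lower in 4, with ETV5 apart by 1.53.

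Other groups stood lower with ASO2 than with ASO10. Hosts of small nucleolar RNAs were lower than with ASO10 in 13 of 23 cases and higher in 1. Cholesterol synthesis genes were lower in 18 of 27 cases and higher in 3: HMGCS1, an early enzyme of the pathway, changed by 0.07 with ASO2 and by 0.82 with ASO10. Of 18 replication-dependent histone genes 7 were lower with ASO2 and none higher, with medians against NCA of -0.09 and 0.62. Most of their transcripts lack poly(A) tails, and the labels name both a total RNA and an mRNA kit without saying which library had which. Among single genes CCNK differed between the ASOs by -1.73 and SOS1 by -1.56, while PCLO, MALAT1 and NEAT1 differed by 0.02, 0.07 and 0.07, none of them called.

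**Figure D5:**
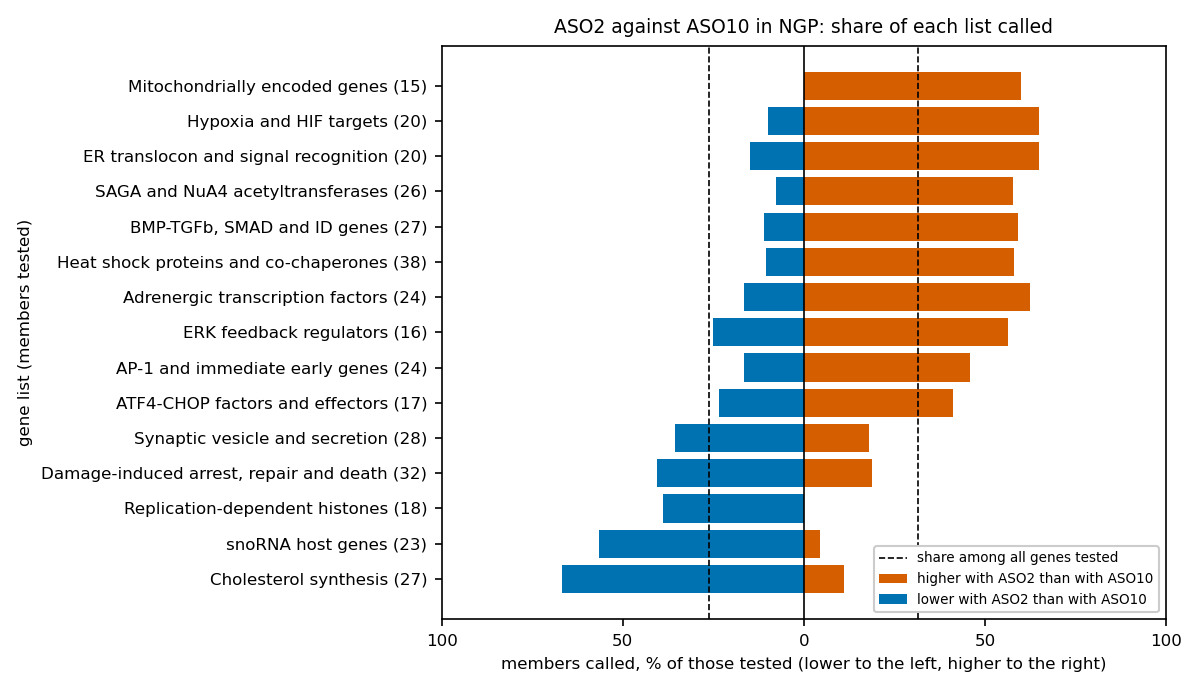
Share of tested members of 15 gene lists called higher (right) or lower (left) with ASO2 than with ASO10 in the direct contrast. Dashed lines mark the shares over all genes tested, 31.4% and 26.1%. Cholesterol synthesis genes (18 of 27 lower) and hypoxia genes (13 of 20 higher) lie on opposite sides.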

How the data were processed

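RNA was sequenced from NGP cells treated with ASO2, ASO10 or NCA, 3 libraries each. The deposited table holds the authors' normalized read signal per gene, which is gene counts divided by size factors, and the submitters' processing notes name FastQC 0.11.8, cutadapt 1.18, STAR 2.6.0, HTSeq 0.6.1, DESeq2 1.42.0 and the builds hg19 and GRCh37. The annotation and the strand setting of the counting are not given in the sources used here. Whole reads were recovered for 100.0% of the values (tolerance 0.01). Genes averaging 10 or more normalized counts in the 6 ASO2 and NCA libraries were taken as log2(value + 1) and fitted in limma 3.58.1 (R 4.3.3) with group means over all 9 libraries, which share one estimate of the spread. P-values were adjusted by Benjamini-Hochberg over the 14114 genes, and errors are SE. The script was tested on simulated counts. Alternatives were edgeR 4.0.16 and DESeq2 1.42.0 on recovered reads, other pseudocounts and filters, equal totals, a replicate block and leaving out each library. Gene lists and their members were chosen with earlier results of these data known. Named genes were the 10 largest rises and falls at a mean of at least 50 without overlap, up to 4 called members per direction of each list, and members marked in the lists. Symbols were matched for 89.8% of gene identifiers, and gene spans came from GENCODE 29. Some members of the lists count in the totals and are not reported singly here.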

Additional observations from a re-analysis of the deposited data

How the results depend on the processing

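The count of genes called with ASO2 against NCA (8383) lay between 7404 and 8753 under the other pseudocounts, filters, scaling and tools, with 8403 in edgeR and 7942 in DESeq2, and between 7539 and 8195 when each library was left out in turn. The count of calls with a change of at least 1 (1298) moved by more than 1.5 times with the filter alone, to 1960 at a mean of at least 1 and to 735 at a mean of at least 50, where more and fewer genes are tested. With equal totals 3588 genes rose and 4670 fell, a shift of the median by -0.07. That scaling turned the larger side of the adrenergic factors (6 higher, 11 lower) and of the genes of mitosis (19 and 23). It also turned that of the Polycomb list (10 and 14). It left even counts for RAB GTPases (12 and 12) and lysosome genes (10 and 10). The same held for PI3K and mTOR genes (11 and 11) and nucleic acid sensors (4 and 4). Of 99 lists compiled, 68 are in the text. Several of the others also turned with equal totals. Nuclear subunits of respiratory complexes II to V went from 14 higher and 3 lower to 3 and 9. General RNA polymerase II factors went from 11 and 5 to 7 and 10, and Mediator from 12 and 9 to 8 and 13. The Polycomb list also turned in edgeR and in DESeq2 (11 and 12 in each) and without NCA replicate 3 (11 and 12), and the adrenergic list in edgeR (8 and 9) and without ASO2 replicate 2 (6 and 8) or NCA replicate 2 (7 and 9). Chromatin remodellers turned to 12 higher and 11 lower with the looser filters and without ASO2 replicate 3 or NCA replicate 1. Mitochondrial ribosomal proteins turned to 19 and 17 without ASO2 replicate 2, 17 and 16 without NCA replicate 1, and 19 and 18 without NCA replicate 3. Against ASO10 the larger side over all genes also turned with the looser filters, to 4486 higher and 4656 lower at a mean of at least 1 and to 4352 and 5100 with no filter. The count of members higher or lower moved by over 1.5 times in 66 of 2176 pairs of a list count and an alternative, over 68 lists. The translocon list had 2 to 4 members lower when single libraries were left out. Same-numbered ASO2 and NCA libraries did not deviate together (correlations of -0.02, -0.05 and -0.08). With 3 libraries per group, such correlations cannot show whether the numbers paired the samples. A fit with the replicate number as a block called 8491 genes against NCA and 8236 against ASO10. LINC00682 kept its direction and its call under all alternatives run. Genes with few reads, such as IRF1, MYC, NOTCH1 and PCDHGC5, have wide intervals at this depth. Of 3937 pairs of a named gene and an alternative 3908 kept the side of the threshold, 24 lost the call, 5 gained it and none reversed. Calls of HSPA5, HSPB1, CRELD2, DBH, VHL, DLK1, EIF4EBP1 and SPRED3 were lost when single libraries were left out: HSPB1 fell by 0.35 without ASO2 replicate 3 and by 0.60 without NCA replicate 1, and SPRED3 by 0.69 without NCA replicate 2. Without NCA replicate 2, DDIT3 (0.21), NPAS4 (0.99) and MYCN (-0.11) were called, and without NCA replicate 3, HMGCS1 (0.12) was. EIF4EBP1 also lost its call in the fit of 6 libraries and with the looser filters.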

Other observations

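Other gene groups held members with sizeable changes. Glycolysis genes rose in 13 of 25 tested cases and fell in 6: the regulators PFKFB4, PFKFB2 and PDK1 rose by 0.93, 0.83 and 0.71, while the enolase ENO1 and the kinase PDK3 fell by 0.70 and 0.99. Chromatin remodellers were nearly even, with 12 of 29 higher and 13 lower. There CHD5, a remodeller on the short arm of chromosome 1, rose by 1.61 from a low level, and ACTL6B and PBRM1, subunits of neuronal BAF and of PBAF, fell by 1.39 and 1.08. Lysosome and V-ATPase genes rose in 12 of 33 cases (36.4%) and fell in 8 (24.2%), near the shares over all genes tested. With equal totals 10 rose and 10 fell. The pump subunit ATP6V0D1 was down by 1.19 and the membrane protein LAMP1 up by 0.56. Small GTPases of the RAB family rose in 18 of 48 cases and fell in 8, with RAB36 down by 1.87. With equal totals 12 of them rose and 12 fell.

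Kinesins, the motors of microtubules, fell in 15 of 34 cases and rose in 11: KIF7, of the Hedgehog pathway, and KIF21A fell by 1.04 and 0.70, and KIF1C and KIF20B rose by 0.87 and 0.68. KIF21A was chosen after its value was seen. Imprinted genes were even, with 6 of 17 higher and 6 lower, and MEG3 and DLK1, neighbours on chromosome 14, changed by -0.21 and -0.20. Among ferroptosis genes 6 of 13 rose, with the transferrin receptor TFRC at 0.63, and 3 fell, with the lipid enzyme LPCAT3 at -1.34. Of ubiquitin E2 enzymes 15 of 32 rose and 9 fell, with UBE2G1 at 0.67 and UBE2D4 at -0.83. CYP4F3, a hydroxylase of leukotrienes, had the largest rise among genes with a symbol, a mean of at least 50 and no overlap (3.55). It stood at 101, 126 and 149 normalized counts with ASO2 against 10.9, 11.5 and 7.18 with NCA. The control values lay below 50, so CYP4F3 met that mean only through the ASO2 libraries. Its rank is therefore tied to its rise.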
